A study of Arabidopsis thaliana with 18 samples.

Results

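A set of 10 Arabidopsis genes known as markers of darkness and low energy was followed in seedlings that lack normal CERES function. CERES is a plant protein that binds eIF4E, the translation initiation factor that recognises the cap of mRNAs. The genes are ASN1 (AT3G47340), SEN1 (AT4G35770), DIN10 (AT5G20250), BGLU30 (AT3G60140), DRM2 (AT2G33830), BCAT2 (AT1G10070), TPS8 (AT1G70290), TPS9 (AT1G23870), TPS11 (AT2G18700) and SEN5 (AT3G15450). They were taken by locus, as genes known to respond to darkness and low sugar, with earlier results of these data known. All 10 are among the 27628 genes of the authors' deposited table.

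The study compared ceres-1 and ceres-2, both mutants in the Col-0 background, with wild-type Col-0. All were whole seedlings aged 9 days, grown under control conditions and harvested 5 h after lights on. Each genotype has 3 libraries of ribosome footprints and 3 of RNA, 18 libraries in all. The labels do not describe the lesions. For CERES (AT4G23840) itself, the authors' deposited table gave RNA log2 fold changes of -4.43 in ceres-1 and -2.92 in ceres-2 relative to Col-0 (adjusted p = 5.62e-08 and 6.19e-05).

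Each value in the authors' deposited table is a log2 fold change over Col-0, with the adjusted p of DESeq2, and none belongs to a single library. The depth behind each value is therefore unknown, and neither an SD nor an interval accompanies it. Nor can the labelled tissue be checked against marker levels, since the table gives changes and not levels. A gene is called when its adjusted p is below 0.05. A gene that is not called is not thereby shown to be unchanged. In whole seedlings, fewer cells of a type and less RNA per cell cannot be told apart.

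When light or sugar runs short, plant cells activate the kinase SnRK1, a relative of yeast SNF1 and animal AMPK. SnRK1 acts in part through bZIP transcription factors of the C and S1 groups, which bind DNA sites with an ACGT core and switch on genes for the breakdown of amino acids, cell walls and stored sugars. Trehalose 6-phosphate, a signal of sucrose supply, inhibits the kinase. The dark-inducible (DIN) genes were isolated from darkened leaves, and their mRNAs fall again when sugar is supplied.

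Ribosomes begin at the start codon, so its surroundings are shown first, for all 10 genes. Each line holds 24 bases of the reference mRNA, 10 before the start codon and 14 from it on, 5′ to 3′, with the start codon in capitals. All 10 loci matched the RefSeq annotation of TAIR10.1, from which the sequences come.
ASN1: aaaaaaaaacATGtgtggaatact
SEN1: agaagtgaaaATGgaaaccactgc
DIN10: agaaacaaaaATGgcgtcacagag
BGLU30: agagagaaaaATGgctaagggatc
DRM2: agaaagaaatATGtgggatgaaac
BCAT2: gcaaaagaagATGatcaaaacaat
TPS8: ctgtttctccATGgtgtcaagatc
TPS9: attcttctctATGgtgtcaagatc
TPS11: cttcttcgttATGtcgccggaatc
SEN5: gaaaacgaaaATGttggcaatatt

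The base 3 before the start codon was a purine in 8 of the 10 genes, and in 73.5% of 22937 protein-coding genes with an annotated leader long enough. TPS8 and TPS9 were the exceptions. The base right after the start codon was G in 5 of the 10 genes, against 55.5% of all. Both features stood together in 3 of the 10, which were SEN1, DIN10 and BGLU30, and in 39.3% of all. The 3 TPS genes had runs of T and C before the start codon, whereas the other genes had mostly A and G there.

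The windows before the transcription start are shown for the 5 genes called in footprints in at least one mutant. Each holds the bases of the gene's own strand up to the annotated start in RefSeq TAIR10.1, 250 bases long, or 200 for SEN1, whose window was shortened by 50 bases that lie in the untranslated part of a neighbouring gene. The ASN1 window was not shortened, although 136 of its bases lie in the annotated gene AT3G47341. Capitals mark matches, on either strand, to any of 6 short motifs. These are the I-box core GATAAG, the element TATCCA of sugar-repressed rice amylase promoters, the ACGT core of bZIP sites, the G-box CACGTG, which itself holds that core, the element ACTCAT of proline-responsive promoters and the evening element core AATATCT. In the DRM2 window a TATCCA overlaps a GATAAG on the opposite strand.
ASN1 (chromosome 3, minus strand): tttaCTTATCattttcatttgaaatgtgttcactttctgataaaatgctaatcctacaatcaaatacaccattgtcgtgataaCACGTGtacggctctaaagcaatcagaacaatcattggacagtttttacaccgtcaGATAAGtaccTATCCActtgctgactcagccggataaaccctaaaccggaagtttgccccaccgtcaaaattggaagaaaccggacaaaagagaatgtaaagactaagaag
SEN1 (chromosome 4, plus strand): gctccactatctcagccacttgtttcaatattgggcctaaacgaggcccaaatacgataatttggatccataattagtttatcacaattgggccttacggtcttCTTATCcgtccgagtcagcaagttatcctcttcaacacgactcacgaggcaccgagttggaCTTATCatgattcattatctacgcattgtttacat
DIN10 (chromosome 5, plus strand): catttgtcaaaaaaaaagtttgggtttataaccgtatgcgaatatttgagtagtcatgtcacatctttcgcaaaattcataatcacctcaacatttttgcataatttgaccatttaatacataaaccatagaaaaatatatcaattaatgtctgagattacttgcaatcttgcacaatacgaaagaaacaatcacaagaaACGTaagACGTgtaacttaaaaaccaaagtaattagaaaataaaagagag
DRM2 (chromosome 2, minus strand): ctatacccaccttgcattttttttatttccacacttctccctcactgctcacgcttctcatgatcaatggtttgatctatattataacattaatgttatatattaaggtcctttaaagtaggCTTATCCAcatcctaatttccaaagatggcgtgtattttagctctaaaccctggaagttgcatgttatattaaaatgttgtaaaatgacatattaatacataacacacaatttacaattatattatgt
SEN5 (chromosome 3, plus strand): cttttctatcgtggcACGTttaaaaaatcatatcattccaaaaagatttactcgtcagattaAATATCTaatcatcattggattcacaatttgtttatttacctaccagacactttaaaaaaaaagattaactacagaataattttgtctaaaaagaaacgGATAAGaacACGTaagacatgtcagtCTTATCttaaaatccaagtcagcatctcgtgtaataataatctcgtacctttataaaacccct

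GATAAG was found in the windows of 7 of the 10 genes, namely ASN1, SEN1, DRM2, BCAT2, TPS8, TPS11 and SEN5. It was found in 12.3% of the 27443 windows of the same length of all protein-coding genes. ACGT was in 6 of the 10 windows, against 44.1% of all, and TATCCA in 3, against 13.6%. CACGTG was found in ASN1, 167 bases before its start, and in 6.5% of all windows. AATATCT was found in SEN5 and in 2745 of the 27443 windows. ACTCAT was in 0 of the 10 and in 12.3% of all. DIN10 had ACGT at 2 places and no GATAAG, SEN5 had both at 2 places each, and BGLU30 had none of the 6 motifs. A match is a run of letters and not a shown binding site.

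In ribosome footprints, ASN1, SEN1, DIN10 and SEN5 rose in ceres-1, and ASN1, SEN1 and DRM2 rose in ceres-2. These were 4 of the 10 genes in ceres-1, where 0.351% of all 9967 genes with an adjusted p were called higher. They were 3 of the 10 in ceres-2, where 0.733% of 14453 were called higher. Since the 10 were chosen with earlier results of these data known, these shares are no test of the list. None of the 10 was called lower. BGLU30 and BCAT2 have no footprint adjusted p in either mutant, so the calls come from 8 genes.

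ASN1 makes asparagine, a carrier of nitrogen with little carbon, and is the dark-inducible gene DIN6. For its footprints the authors' deposited table gave log2 fold changes over Col-0 of 0.83 in ceres-1 and 0.63 in ceres-2 (adjusted p = 1.19e-04 and 1.69e-04). These are 1.78-fold and 1.55-fold higher levels. Of all genes tested, 0.311% lay above it in ceres-1 and 1.26% in ceres-2.

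SEN1, also DIN1, is a senescence-associated gene of darkened and ageing leaves. For SEN1 the authors' deposited table put the footprint change at 0.65 in ceres-1 and 0.60 in ceres-2 (adjusted p = 0.0085 and 0.0426). Its changes were thus of like size in both mutants, and in ceres-2 close to the threshold. The 4 log2 fold changes of RNA and footprints were compared among the 12049 genes that have a p-value for efficiency in each mutant. SEN1 and ASN1 were each other's nearest neighbours there (Euclidean distance 0.19). The gene next nearest to both was RTFL17 (AT1G13245), at distances of 0.21 from ASN1 and 0.23 from SEN1.

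SEN5 encodes a protein with YGL and LRDR motifs, annotated as aluminium induced, and is used as a marker of SnRK1 activity. In footprints the authors' deposited table placed it at 0.88 in ceres-1 (adjusted p = 9.08e-06) and at 1.60 in ceres-2 (adjusted p = 0.127). The larger change is thus the one without a call. Of the 15 genes tested in ceres-2 footprints with a log2 fold change of at least 1.5, 11 were called, and SEN5 ranked 8 of 14453 by its change. The spread between libraries behind this p-value was not tested, since no library values are given. Nearest to SEN5 in the 4 log2 fold changes were AT5G19120, an aspartyl protease family gene, BT2 (AT3G48360) and AT5G44260, at distances of 0.29, 0.34 and 0.46.

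DRM2 belongs to the dormancy- and auxin-associated family. Its footprint change in the authors' deposited table is 0.67 in ceres-1 (adjusted p = 0.0525) and 0.73 in ceres-2 (adjusted p = 0.0183). The values lay close together, on either side of the threshold. DIN10 is also named raffinose synthase 6, after enzymes that make a storage and transport sugar. Here the authors' deposited table gave 0.68 in ceres-1 (adjusted p = 0.0256) and -0.062 in ceres-2 (adjusted p = 0.97). DIN10 was called in one mutant and lay near 0 in the other. The table holds no contrast of the alleles with each other, so whether they differ at DIN10 was not tested.

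TPS8, TPS9 and TPS11 are class II trehalose phosphate synthase-like proteins, whose family name comes from the enzyme of trehalose 6-phosphate synthesis. For these genes the authors' deposited table listed ceres-1 footprint changes of 0.22, 0.38 and 0.50 (adjusted p = 0.717, 0.481 and 0.124). For ceres-2 the authors' deposited table listed 0.36, 0.34 and 0.26 (adjusted p = 0.397, 0.32 and 0.746). All 3 lay above 0 in both mutants without a call.

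BCAT2 is a branched-chain amino acid aminotransferase of the chloroplast. Its footprint values, per the authors' deposited table, were 0.40 in ceres-1 and -1.42 in ceres-2. BGLU30 is a beta-glucosidase also named DIN2, and the authors' deposited table put its footprints at -0.62 in ceres-1 and -0.23 in ceres-2. Neither has an adjusted p for footprints, so neither value was tested. Both genes lay below 0 in RNA in both mutants.

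**Figure D1:**
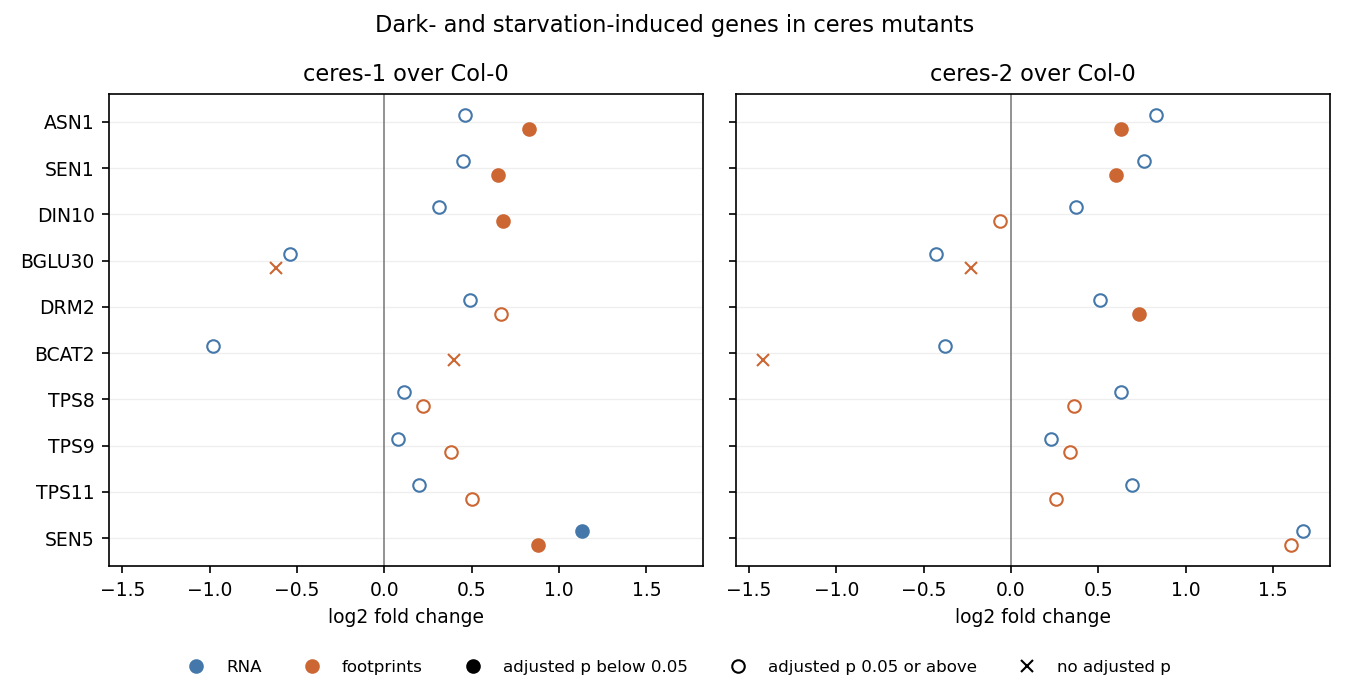
Log2 fold changes of the 10 genes over Col-0 (x axis) in ceres-1 (left) and ceres-2 (right), with RNA in blue and footprints in orange, one value per gene from the authors' deposited table and hence no error bars. Filled points passed the adjusted p of 0.05, open points did not and crosses have no adjusted p. The footprints of ASN1 and SEN1 are filled in both panels, and BGLU30 and BCAT2 lie left of 0 in RNA.

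In RNA, SEN5 was the 1 gene of the 10 that was called, in ceres-1. There the authors' deposited table put it at 1.13 (adjusted p = 0.00139), a 2.19-fold higher level. That is 1 of 10, where 0.0124% of 24142 genes were called higher. For ceres-2 the authors' deposited table put SEN5 at 1.67 (adjusted p = 0.469), and 0 of the 10 were called, where 0.116% of 19000 genes were called higher. Adjusted p-values for RNA were above 0.99 for 99.9% of genes in ceres-1 and 99.4% in ceres-2. Unadjusted p-values are not used here, because the columns hold adjusted ones.

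The RNA values of the uncalled genes lay mostly above 0. For ASN1 the authors' deposited table gave 0.46 in ceres-1 and 0.83 in ceres-2 (adjusted p = 0.9998 and 0.261). Likewise, the authors' deposited table has SEN1 at 0.45 and 0.76, DRM2 at 0.49 and 0.51 and DIN10 at 0.31 and 0.37, each in ceres-1 and then ceres-2. In the TPS genes the RNA values of the authors' deposited table ranged over 0.079 to 0.20 in ceres-1 and 0.23 to 0.69 in ceres-2. The 2 genes below 0 in the authors' deposited table were BCAT2, at -0.98 and -0.38, and BGLU30, at -0.54 and -0.43.

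Over all 10 genes, 8 lay above 0 in RNA in each mutant, with medians of 0.26 in ceres-1 and 0.57 in ceres-2. Of all genes tested, 49.3% and 49.1% lay above 0. In footprints 9 of 10 lay above 0 in ceres-1 and 7 of 10 in ceres-2, with medians of 0.58 and 0.35, against 50.4% and 49.7% of all genes with a value. Among the 8 genes with a footprint adjusted p the medians were 0.66 and 0.48, beside 0.0064 and 0.00055 over all genes tested. Both comparisons share the Col-0 libraries, so the values of the alleles are not independent.

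Translational efficiency is taken here as the difference, on the log2 scale, of the footprint change and the RNA change. The deposited fold change column headed as efficiency was not used for it, since it follows the footprint column. The adjusted p headed as efficiency was used as labelled, and whether it tests this difference could not be checked. None of the 8 genes with an efficiency adjusted p was called in either mutant, where 0.107% of 12120 genes in ceres-1 and 0.041% of 12188 in ceres-2 were called in either direction. In ceres-1 the difference was above 0 in 7 of these 8 genes, and it was -0.25 in SEN5. It was 0.37 in ASN1, 0.36 in DIN10, 0.31 in TPS9 and 0.30 in TPS11 in ceres-1. Over the 8 genes the median was 0.25 in ceres-1, against 0.00011 over all genes tested.

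In ceres-2 the difference was above 0 in DRM2, at 0.22, and in TPS9, at 0.11, and below 0 in the other 6. DIN10 and TPS11 had the lowest values in ceres-2, at -0.43 and -0.42. ASN1 was at -0.20 and SEN1 at -0.16 in ceres-2. Over the 8 genes the median was -0.18 in ceres-2, against -0.0097 over all genes tested. The efficiency p-value that the authors' deposited table gives for ASN1 is 0.65 in ceres-1 and 0.983 in ceres-2, after adjustment. So for ASN1 and SEN1 the footprint value was the higher of the pair in ceres-1 and the RNA value in ceres-2. Neither gene had an efficiency call in either mutant.

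**Figure D2:**
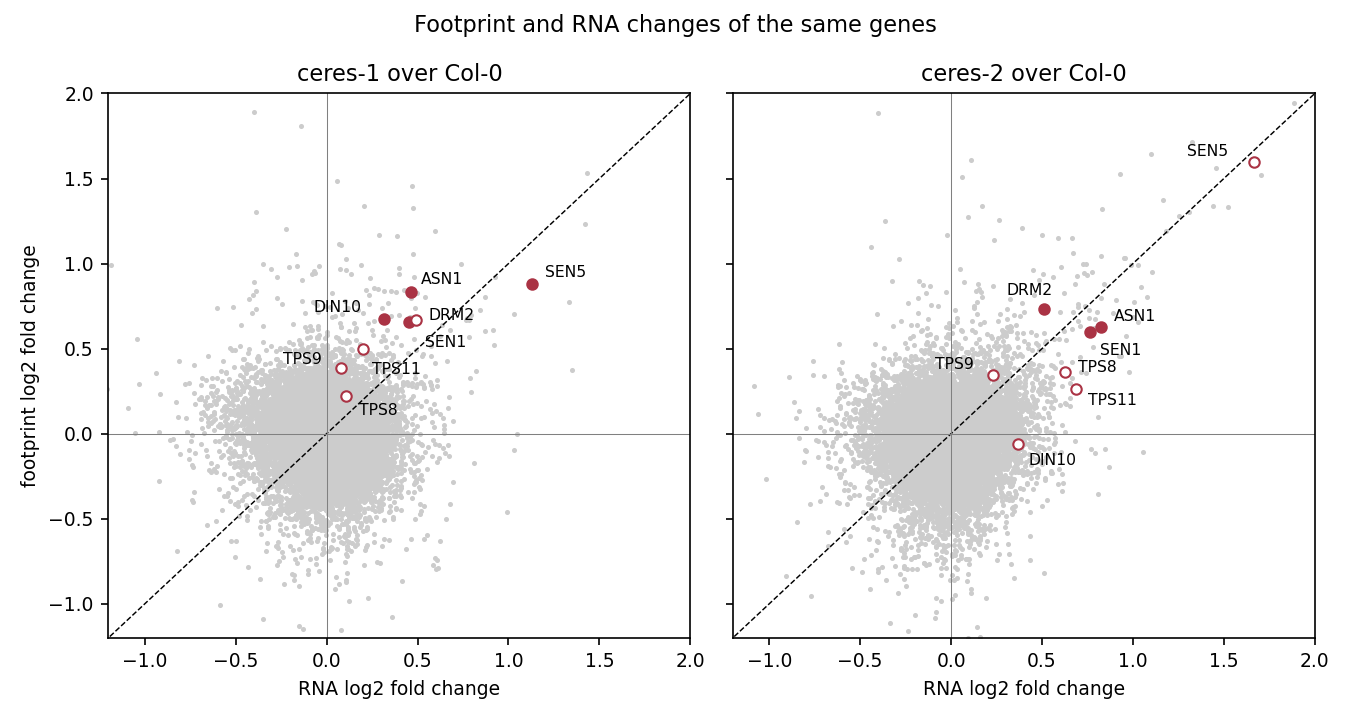
Footprint log2 fold change (y axis) against RNA log2 fold change (x axis) over Col-0 in ceres-1 (left) and ceres-2 (right). Grey points are the 12049 genes with a p-value for efficiency in each mutant, some of which fall outside the axes, red circles are the 8 dark- and starvation-induced genes among them, filled where footprints passed the adjusted p of 0.05, and the dashed line marks equal change. In ceres-1 7 of the 8 circles lie above the line, and in ceres-2 DRM2 and TPS9 do.

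Family relatives of these genes were listed by name and not by response. For ASN2 and ASN3, the other asparagine synthetases, the authors' deposited table gave footprint values of 0.30 and -0.068 in ceres-1 and of -0.10 and 0.053 in ceres-2, with 0 of 2 called. DRM1 (AT1G28330), the only relative of DRM2 that was listed, rose in ceres-2 footprints. For DRM1 the authors' deposited table gave 0.26 in ceres-1 (adjusted p = 0.795) and 0.72 in ceres-2 (adjusted p = 0.0242). It was the 1 called gene among the listed relatives.

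Among the other 5 trehalose phosphate synthase genes measured (TPS1, TPS5, TPS6, TPS7 and TPS10), footprint values of the authors' deposited table spanned 0.012 to 0.27 in ceres-1 and -0.059 to 0.088 in ceres-2. TPS8, TPS9 and TPS11 thus lay above all of these in ceres-2 and partly in their range in ceres-1, and these differences between genes were not tested. For the raffinose synthase relatives SIP1, SIP2 and RS5 the authors' deposited table spanned -0.33 to 0.20 in ceres-1 and -0.29 to 0.086 in ceres-2. AT4G27450, a relative of SEN5, had the highest footprint values of its 4 relatives, and the authors' deposited table put it at 0.41 in ceres-1 and 0.36 in ceres-2 (adjusted p = 0.459 and 0.702). The other relatives of SEN5, which are AILP1, AT3G22850 and AT5G43830, span 0.015 to 0.29 in ceres-1 and 0.079 to 0.17 in ceres-2 by the authors' deposited table. BCAT1, BCAT3, BCAT4, BCAT5 and BCAT6 had 0 calls in either mutant. Their footprints were at 0.0033 to 0.33 in ceres-1 and -0.10 to 0.30 in ceres-2 by the authors' deposited table. In ceres-1 BCAT1, the highest at 0.33, and BCAT6 have no footprint adjusted p. STS, of the raffinose synthase family, has no footprint adjusted p, and the authors' deposited table has it at 0.20 in ceres-1 and 0.15 in ceres-2. Relatives of BGLU30 have none either, and the authors' deposited table has BGLU28 at -0.11 and 0.052, BGLU29 at 3.19 and -0.043 and BGLU31 at -0.41 and -0.47, in ceres-1 and then ceres-2. BGLU32 has a value in ceres-1 footprints alone, 1.74 by the authors' deposited table.

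Shared sequence between relatives was checked with exact words of 28 bases in coding sequence, which leaves out shorter footprints and alignment with mismatches. Of all such words in the coding sequence of ASN1, SEN1, DIN10, DRM2, BCAT2 and SEN5, 0 occur in an annotated mRNA of another gene in RefSeq TAIR10.1. TPS8 and TPS9 share 10 words with each other, 0.4% of each, TPS11 shares 3 words (0.1%) with TPS6 and BGLU30 shares 17 (1.0%) with BGLU29. The gene models of ASN1, DIN10, BCAT2 and SEN5 overlap a neighbour by 11, 82, 161 and 41 bases. Whether the counting used strand is not stated, so reads in those stretches are uncertain.

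**Figure D3:**
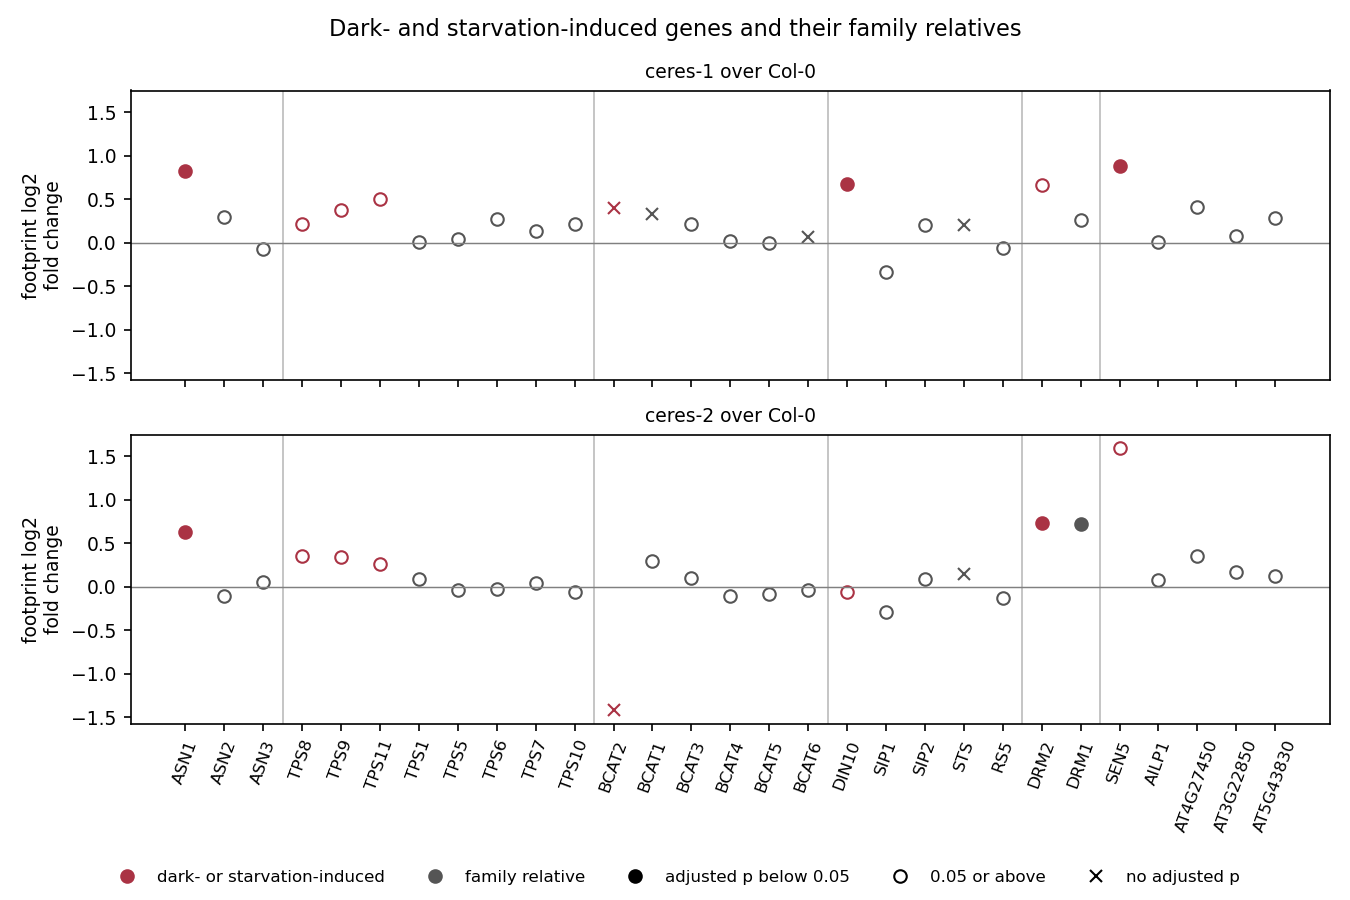
Footprint log2 fold change over Col-0 (y axis) of 8 dark- and starvation-induced genes (red) and their family relatives (grey) in ceres-1 (top) and ceres-2 (bottom), with vertical lines between families. Filled points passed the adjusted p of 0.05, open points did not and crosses have no adjusted p. In the lower panel DRM2 and its relative DRM1 lie side by side at 0.73 and 0.72.

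SnRK1 and the bZIP factors had 1 call in all. Between 0.0124% and 0.733% of all genes tested were called higher in RNA or footprints, so 0 calls in a short list say little. Of the SnRK1 subunits with values, 0 of 5 were called in RNA or footprints in either mutant. Their highest footprint value was that of AKINBETA1 (AT5G21170), a regulatory subunit, which the authors' deposited table put at 0.42 in ceres-1 and 0.50 in ceres-2 (adjusted p = 0.489 and 0.212). The lowest, the regulatory subunit AKINBETA3, stands in the authors' deposited table at -0.30 in ceres-1, without an adjusted p, and -0.47 in ceres-2 (adjusted p = 0.804). Of the 9 C and S1 bZIP factors, 3 had a footprint adjusted p in ceres-1 and 6 in ceres-2. The others could not be called in footprints. BZIP1 (AT5G49450), itself an early marker of sugar starvation, rose in ceres-2 footprints. Its level there is 2-fold higher by the authors' deposited table (adjusted p = 0.0214). In ceres-1 footprints the authors' deposited table has BZIP1 at 0.69, without an adjusted p. Its RNA was uncalled, and the authors' deposited table has it at 0.46 in ceres-1 and 0.74 in ceres-2 (adjusted p = 0.9998 and 0.966). The lowest of the 9 was BZIP11 (AT4G34590), a factor under sucrose-controlled translation, for which the authors' deposited table gave footprint values of -0.66 in ceres-1 and -1.42 in ceres-2, without an adjusted p.

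A further 13 markers of low energy had 0 calls in ceres-1 in either layer. In ceres-2 DRM1 was called in footprints, and RZPF34 (AT5G22920), a RING zinc-finger gene, in RNA. For RZPF34 the authors' deposited table gave RNA changes of 0.53 in ceres-1 and 1.08 in ceres-2 (adjusted p = 0.9998 and 0.00184). Its footprint changes in the authors' deposited table are 0.47 and 0.80 (adjusted p = 0.237 and 0.43). Among the markers with a footprint adjusted p, 8 of 10 lay above 0 in ceres-1 and 9 of 11 in ceres-2, with medians of 0.25 and 0.15. The lowest of them were PRODH1 (AT3G30775), a proline dehydrogenase, which the authors' deposited table put at -0.14 in ceres-1, and TPS10, put at -0.059 in ceres-2. For the other dark-inducible genes DIN3, DIN4 and DIN9, footprint values of the authors' deposited table spanned -0.019 to 0.47. The top of that range is the ceres-2 value of DIN9, a gene without a footprint adjusted p in either mutant. DIN11 (AT3G49620), the highest of the 13 by its mean footprint change, lay outside that range in ceres-1. For its footprints the authors' deposited table has 1.69 in ceres-1 and 0.14 in ceres-2, without an adjusted p. In RNA the authors' deposited table has DIN11 at 1.58 in ceres-1 (adjusted p = 0.9998) and at 0.78 in ceres-2, without an adjusted p.

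The genes listed for the breakdown of branched-chain amino acids include DIN3 and DIN4 of the low-energy markers. Of this short list 0 of 8 were called in either layer and mutant. The footprint medians of the 8 were 0.086 in ceres-1 and 0.044 in ceres-2. IVD (AT3G45300) is the isovaleryl-CoA dehydrogenase of this pathway, and the authors' deposited table put its footprints at 0.11 and 0.14. By mean footprint change the extremes were DIN4, at 0.43 in ceres-1 and 0.090 in ceres-2, and E1A1, at 0.067 and -0.26, both subunits of the branched-chain dehydrogenase, as listed in the authors' deposited table. Of 4 sugar-induced genes, which respond to sugar in the opposite way to the 10, 0 were called, and 2 of them had a footprint adjusted p. For GPT2 (AT1G61800), a plastid glucose 6-phosphate translocator, the authors' deposited table gave footprint values of 0.35 in ceres-1 and 0.91 in ceres-2, without an adjusted p. The lowest of the 4 by mean footprint change was APL3, a subunit of the starch-making ADP-glucose pyrophosphorylase. The authors' deposited table has APL3 at -0.16 in ceres-1 and -0.024 in ceres-2. In ceres-1 alone BAM5 was lower, and the authors' deposited table has it at -0.25 there and 0.68 in ceres-2, without an adjusted p.

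Senescence and root markers were set beside the 10 genes, several of which are also senescence genes. Of 5 senescence markers 0 were called, but 1 of the 5 had a footprint adjusted p in ceres-1 and 3 in ceres-2, so most could not be. The highest in ceres-2 footprints was NAP (AT1G69490), a NAC factor of leaf senescence, which the authors' deposited table put at 0.75 (adjusted p = 0.0738). SAG12 (AT5G45890), the defining gene of late senescence, has no RNA value in either mutant, and the authors' deposited table has its footprints at 2.13 in ceres-1, without an adjusted p. In ceres-1 RNA the authors' deposited table has SAG13 at 1.45 (adjusted p = 0.9998), with a footprint value of 0.22 and no adjusted p for it. The lowest by mean footprint change was NYE1, a gene of chlorophyll breakdown, which the authors' deposited table put at 0.065 in ceres-1 and -0.014 in ceres-2. Of 8 root markers, again a short list, 0 were called in either layer. Their footprint medians were -0.49 in ceres-1, over the 4 with an adjusted p, of which 0 lay above 0, and 0.19 in ceres-2, where 7 of 8 did. The extremes were PRP1 (AT1G54970), which the authors' deposited table put at -0.69 in ceres-1, and EXPA18 (AT1G62980), put at 0.44 in ceres-2. By mean footprint change the extremes were EXPA7, at 0.091 in ceres-1 and 0.27 in ceres-2, and PRP3, at -0.67 and 0.087, as the authors' deposited table lists them. The root markers' RNA medians were 0.00044 and 0.17. Whether the root share of the seedlings has a part in the values of the 10 genes was not tested.

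**Figure D4:**
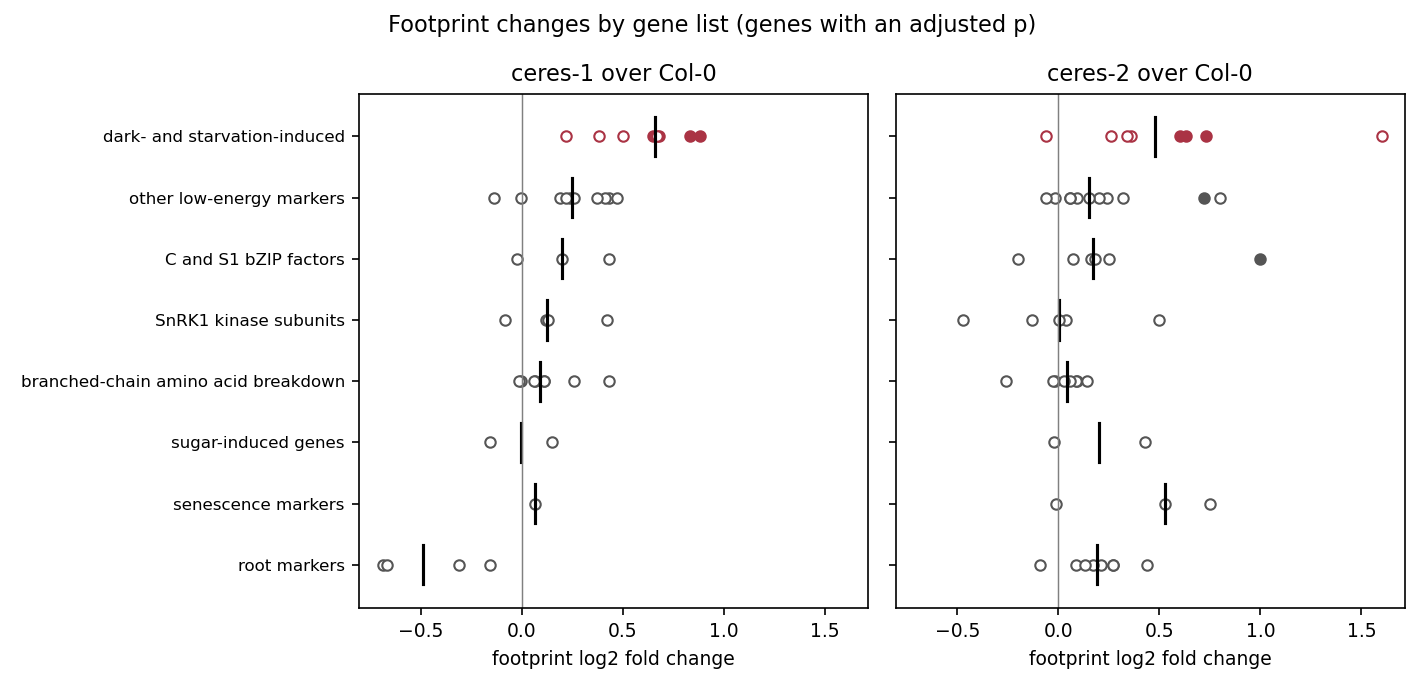
Footprint log2 fold change over Col-0 (x axis) of the genes with an adjusted p in each list (rows), in ceres-1 (left) and ceres-2 (right). Filled points passed the adjusted p of 0.05, and the black bar is the list median. The dark- and starvation-induced genes have medians of 0.66 and 0.48, and the root markers -0.49 and 0.19.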

How the data were processed

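Ribosome footprints and RNA were sequenced from seedlings of ceres-1, ceres-2 and Col-0, with 3 libraries per genotype and kind. Per the submitters' processing notes, the authors used TopHat2 2.1.0, featureCounts 1.6.2 and DESeq2. Build, strand setting and any shrinkage are not stated. The authors deposited log2 fold changes over Col-0 and adjusted p-values per gene, per the file headers. The table gives no value for a single library, and depth is unknown. Nothing says that replicates came from separate cultures, so the p-values may measure technical spread.

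Calls use the authors' adjusted p below 0.05, which not every gene of the table has. In footprints 9967 genes had one in ceres-1 and 14453 in ceres-2, and in RNA 24142 and 19000. Counts, medians, ranks and distances were computed with pandas 2.3.3 in Python 3.11.15, and call counting was tested on simulated data. Members and lists were chosen with earlier results of these data known. Named genes are all members, CERES, family relatives, every called gene of the other lists, each list's extremes in mean footprint change, and the 3 nearest profiles of each called member. A few more genes (NAP, IVD, SAG12, SAG13, DIN9 and the extremes within one mutant) were named after their values were seen. Sequences were read from RefSeq TAIR10.1 by locus, using the transcript with the longest coding sequence. The table names no build, so no coordinates are given, and 17524 of its descriptions cite Araport11. Alternatives changed the threshold, added a minimum fold of 1.5, and changed the members or the summary used.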

Additional observations from a re-analysis of the deposited data

How the results depend on the processing

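Each of 12 counts or medians over the 10 genes was recomputed under 3 or 4 alternatives. Of the 44 values in all, 40 stayed within 1.5 times the reported one. Several of these could not move, so the share that stayed is no measure of robustness. A count of 0 cannot fall under a stricter rule, and some alternatives kept the same genes. With an adjusted p below 0.01 the footprint calls in ceres-2 dropped to 1 gene, ASN1, against 3 at 0.05. The mean RNA change in ceres-1 was 0.17 against a median of 0.26, with BCAT2 and BGLU30 below 0. Taken from the column headed as efficiency, the medians were 0.66 (ceres-1) and 0.47 (ceres-2), close to the footprint medians, against 0.25 and -0.18 for footprint minus RNA. In ceres-1 footprints 3 genes were called below 0.01 and 5 below 0.10, DRM2 being the one added. No paired analysis was possible because only comparisons between genotypes are tabulated, and no replicate could be left out for the same reason.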

Other observations

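Some genes outside the lists lay close to the called members in the 4 log2 fold changes of RNA and footprints, among 12049 genes. For AT5G19120, the nearest to SEN5, the authors' deposited table gave footprint values of 0.92 in ceres-1 and 1.56 in ceres-2 (adjusted p = 7.27e-05 and 0.0355). For RTFL17 (AT1G13245), of the ROTUNDIFOLIA-like small peptide family, the authors' deposited table gave 0.82 and 0.60 (adjusted p = 0.00115 and 0.0442). Near to DRM2 the authors' deposited table has AT3G59940 at 0.61 and 0.69 (adjusted p = 0.0342 and 1.08e-08), and AT1G23390, a kelch F-box gene, at 0.54 and 0.81 (adjusted p = 0.0554 and 5.03e-07). Mitochondrial genes were also among the near profiles, at distances of 0.16 (ATMG00590, from DIN10), 0.33 (ATMG00730, from ASN1), 0.25 (ATMG01275, from SEN1) and 0.23 (ATMG00580, from DRM2). None of these mitochondrial genes was called in RNA or footprints in either mutant, and ATMG00590 has no footprint adjusted p. The other near profiles of DIN10 were EMB2788 (AT4G27010), at 0.23, and AT4G36850, at 0.28. These likenesses rest on 4 values that share the Col-0 libraries and carry no test.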
